A study of Mus musculus with 12 samples.

Results

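The genes described are the 9 transcription factors chosen by name as determinants of regional identity along the intestine, namely Gata4, Gata5, Gata6, Cdx1, Cdx2, Hnf4a, Hnf4g, Onecut2 and Isx, of 45808 genes in the deposited table. All 9 were found by symbol, and all 9 passed the filter on low values (normalized counts averaging 10 or more), as did 15022 genes in all. Messenger RNA was sequenced from the distal ileum of inbred BALB/c mice, with 6 libraries from the group treated with Porphyromonas gingivalis, a bacterium of the mouth linked to gum disease, and 6 from the PBS control group. The labels list no transgene or deletion for either group and give neither age, sex, route, dose nor duration. They also do not tie libraries to separate mice, so p-values here reflect only how far these libraries spread, which may be technical. By its design the series compares the treated group with the controls, and for these 9 genes that comparison asks whether the factors that set position along the gut differed in level.

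The gut epithelium keeps an address along its length. Enterocytes of the duodenum and jejunum express genes for the digestion and uptake of sugar, fat and lactose, while those of the terminal ileum express the machinery that recovers bile acids, and the choice between these programmes is held by transcription factors. In mice GATA4, a zinc finger factor, is present in the proximal small intestine and fades toward the terminal ileum, and in the jejunum it is known to activate jejunal genes and to keep ileal bile acid genes off. GATA6 and GATA5 are its relatives, CDX1 and CDX2 are caudal-type homeobox factors that keep the epithelium intestinal, HNF4A and HNF4G are paired nuclear receptors that drive enterocyte genes, ONECUT2 is a homeobox factor studied in the mouse duodenum, and ISX is an intestine-specific homeobox repressor of carotenoid uptake and cleavage.

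The labelled tissue was checked with genes that mark position along the gut. Fabp6, which encodes the ileal bile acid binding protein, had 2.52 and 16.0 normalized counts in P. gingivalis replicates 1 and 5 and 4.32 in PBS replicate 6, against 11246 to 69383 in the other 9 libraries. Slc10a2, the ileal bile acid transporter, had 23.9 and 57.2 normalized counts in P. gingivalis replicates 1 and 5 and 90.7 in PBS replicate 6, against 1236 to 4007 in the other 9. These 3 libraries, called below those near 0 in Fabp6, thus went against their label in the defining ileal genes. P. gingivalis replicate 6 stood apart in the other direction: Lct, the lactase gene of the proximal small intestine, had 0.870 normalized counts there, the value of 1 read, and Car1, a carbonic anhydrase of the colon, had 498 against at most 2.71 in any other library. Group differences and list medians that these libraries moved most are also given without the first 3, or without P. gingivalis replicate 6. No group difference or list median leaves out all 4 at once, while likeness is also given without all 4. Since the levels come from bulk tissue, fewer cells of a type and less RNA per cell cannot be told apart. The P. gingivalis libraries held 6553306 to 9875045 recovered reads each, and the PBS libraries 7610970 to 10378841, and no pair of libraries was a copy, with a smallest chi-square of 5.03 per degree of freedom.

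The promoters of 5 genes are printed because the levels of these genes mark the ends of the axis on which the factors were read. They belong to the 4 position markers, Lct, Fabp1, Fabp6 and Slc10a2, and Slc2a2, the glucose transporter gene whose levels over the 12 libraries ran closest to those of Gata4. Each sequence is the 250 bases before the RefSeq start, 5′ to 3′ on the gene's strand, from build GRCm38.p6. Capitals mark matches on either strand to a GATA motif, for which AGATAA was searched, along with the form AGATAG, the form TGATAA and the form TGATAG, or to a CDX motif, for which TTTATG was searched along with the form TTTATT. Lct lies at chr1:128328319-128328568 on the minus strand, Fabp1 at chr6:71199629-71199878 on the plus strand, Slc2a2 at chr3:28697653-28697902 on the plus strand, Fabp6 at chr11:43601563-43601812 on the minus strand and Slc10a2 at chr8:5105288-5105537 on the minus strand.
Lct: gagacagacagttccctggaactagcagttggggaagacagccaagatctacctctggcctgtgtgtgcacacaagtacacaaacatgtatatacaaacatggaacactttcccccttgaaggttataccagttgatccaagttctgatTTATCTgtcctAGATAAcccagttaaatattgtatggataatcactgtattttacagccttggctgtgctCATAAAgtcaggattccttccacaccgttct
Fabp1: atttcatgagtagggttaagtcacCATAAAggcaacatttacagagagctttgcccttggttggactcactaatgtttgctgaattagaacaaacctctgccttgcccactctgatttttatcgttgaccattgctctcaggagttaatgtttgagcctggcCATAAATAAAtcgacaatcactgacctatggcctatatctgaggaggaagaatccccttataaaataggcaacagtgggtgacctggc
Slc2a2: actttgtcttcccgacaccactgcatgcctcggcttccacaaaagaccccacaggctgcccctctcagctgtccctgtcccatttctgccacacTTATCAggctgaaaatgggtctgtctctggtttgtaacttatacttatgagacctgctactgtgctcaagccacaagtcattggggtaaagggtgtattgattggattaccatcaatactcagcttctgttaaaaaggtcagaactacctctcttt
Fabp6: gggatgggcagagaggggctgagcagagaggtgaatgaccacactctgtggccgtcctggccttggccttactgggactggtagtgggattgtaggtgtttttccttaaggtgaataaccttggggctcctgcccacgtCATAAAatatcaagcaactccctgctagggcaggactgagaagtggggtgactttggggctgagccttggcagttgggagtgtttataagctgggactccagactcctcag
Slc10a2: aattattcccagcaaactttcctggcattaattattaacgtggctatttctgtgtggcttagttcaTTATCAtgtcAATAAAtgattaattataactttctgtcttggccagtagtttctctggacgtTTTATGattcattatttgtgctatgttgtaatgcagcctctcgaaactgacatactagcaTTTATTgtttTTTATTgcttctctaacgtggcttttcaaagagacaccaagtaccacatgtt

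Both proximal and ileal promoters carried these letters. The Lct promoter held 2 GATA matches, starting 101 and 90 bases before the start, and a CDX match 31 bases before it. The Slc2a2 promoter had 1 GATA match, 156 bases before the start, and the Fabp1 promoter had 3 CDX matches, 226, 88 and 84 bases before it, the last 2 of which overlap. Of the ileal pair, Fabp6 held 1 CDX match, 111 bases before the start, and Slc10a2 held 1 GATA match at 184 bases and 4 CDX matches at 174, 122, 62 and 52 bases. None of the 5 held an HNF4 motif (CAAAGNNCA) in the RefSeq window, which runs on to 50 bases after the start. Over all 32851 promoter windows, 29.8% held a GATA match, 27.6% a CDX match and 6.36% an HNF4 match, so a match is a description of letters and not a site. RefSeq windows were matched for 4 of the 9 factors, Gata5, Cdx2, Hnf4a and Isx, in 5 windows. The upstream window of Hnf4a held a GATA match, and no CDX or HNF4 match stood in any of the 5 windows.

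None of the 9 factors passed the test between the groups. The background was as low: limma called 0% of the 15022 genes tested at an adjusted p of 0.05, edgeR called 0% of 14904 genes and DESeq2 called 0.147% of 21102 genes, 3 higher and 28 lower. The groups overlapped for all 9 factors, where 0.166% of the genes tested had groups that did not overlap. At an unadjusted p under 0.05 limma had 3.73% of the genes tested, 560 genes, and 0 of the 9 factors. On the recovered reads edgeR had 3.64% of 14904 genes, 542 genes, and DESeq2 2.58% of 27207 genes, 703 genes, at that level, and Onecut2 was the 1 factor among them (edgeR unadjusted p = 0.0366 and DESeq2 unadjusted p = 0.0287). A difference below is the mean of log2(normalized count + 1) in the P. gingivalis libraries less that in the PBS libraries, given with its standard error (SE) and 95% interval; the added 1 understates differences of weakly expressed genes. The mean log2 level was higher after P. gingivalis for 3 factors and lower for 6, with a median difference of -0.06, beside a median of -0.00 over all genes tested. The limma adjusted p was 0.992 for each factor other than Isx (0.994) and Hnf4g (0.996).

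**Figure D1:**
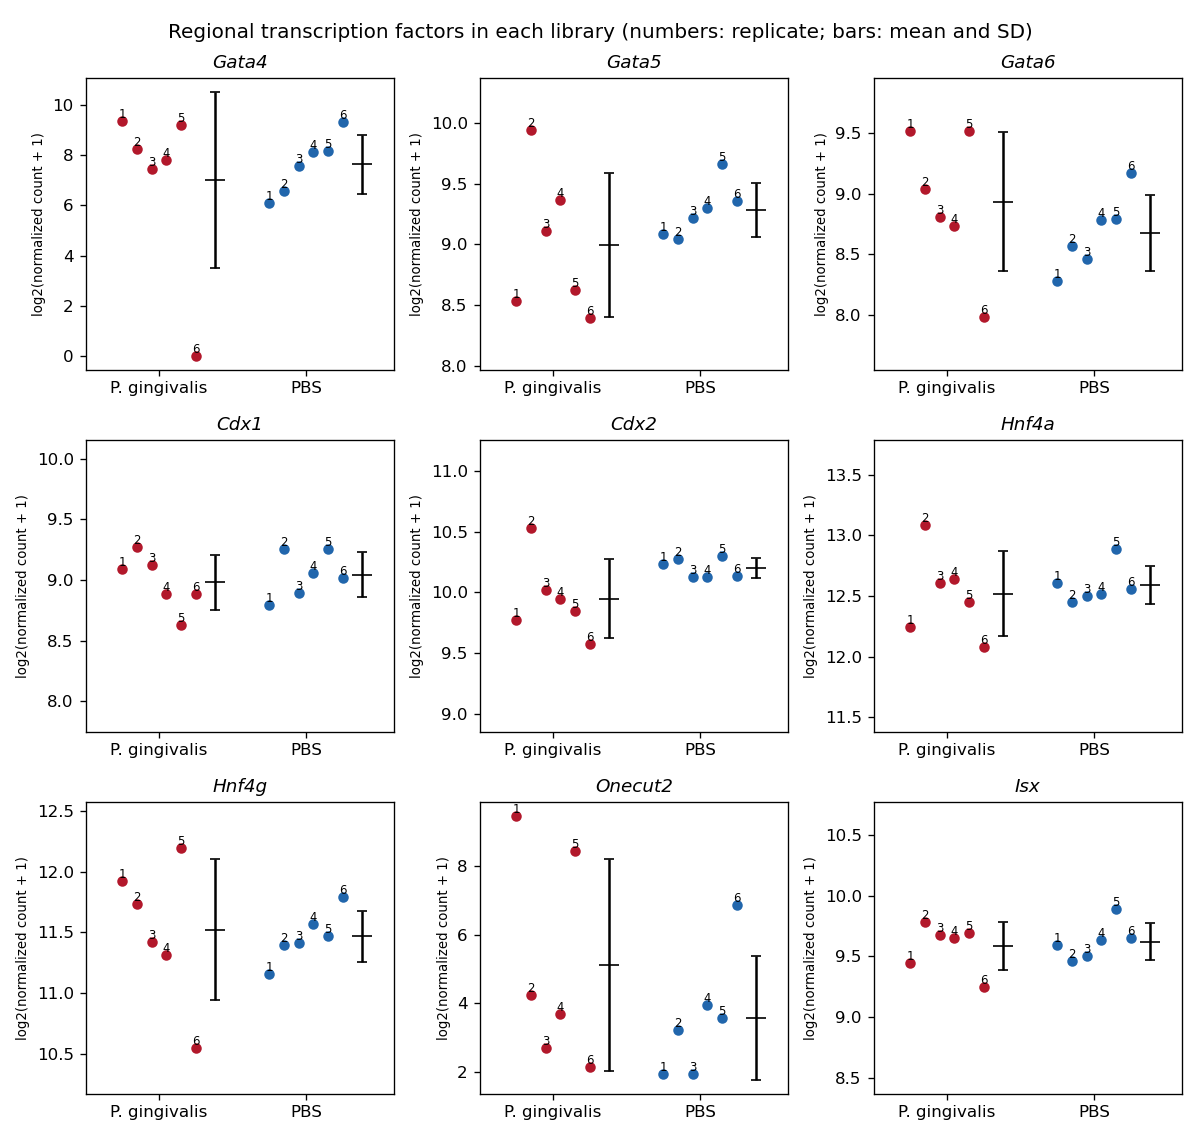
Level of each of the 9 transcription factors in each library, as log2(normalized count + 1) on the vertical axis, in 6 P. gingivalis libraries (red, left) and 6 PBS libraries (blue, right); numbers are replicates and bars the mean and SD of each group, and the vertical scales differ between panels. Gata4 is at 0 in P. gingivalis replicate 6, and Onecut2 is high in P. gingivalis replicates 1 and 5 and PBS replicate 6.

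Gata4 (14:63198922-63271692 in GRCm38, minus strand, protein coding) varied more between libraries than between groups. It had 655, 303, 173, 225, 585 and 0 normalized counts in P. gingivalis replicates 1 to 6, against 67.1, 94.4, 187, 276, 288 and 638 in PBS replicates 1 to 6. Its 3 highest libraries were P. gingivalis replicates 1 and 5 and PBS replicate 6, those near 0 in Fabp6. In P. gingivalis replicate 6 no Gata4 read was recorded among 7432569 reads, where a count of 0 allows up to 3 reads or 2.61 normalized counts, so that the next lowest library was at least 25.7-fold higher; this limit covers counting error only. The SD of its log2 levels over the 12 libraries was 2.52, above that of 99.8% of the genes tested, and 1.06 without P. gingivalis replicate 6. Gata4 averaged 324 ± 251 normalized counts in the P. gingivalis libraries and 258 ± 207 in the PBS libraries (SD, n = 6 each). The group difference on the log2 scale, where the library at 0 weighs more, was -0.63 (SE 1.29, interval -3.40 to 2.15), and its sign turned without P. gingivalis replicate 6, to 0.78. Without the 3 libraries near 0 in Fabp6, but with P. gingivalis replicate 6 at 0 kept, it was -1.42, and neither value passed.

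Gata6, on chromosome 18, is the family member found along the whole small intestine and in crypts. Its normalized counts had a lowest, median and highest value of 252, 487 and 732 in the P. gingivalis libraries, against 310, 409 and 577 in the PBS libraries. The top 2 libraries were P. gingivalis replicates 5 and 1, at 732 and 730, followed by PBS replicate 6 at 577, and the bottom one was P. gingivalis replicate 6, so the same libraries stood at both ends as for Gata4, over a narrower range. The group difference was 0.26 (SE 0.23, interval -0.25 to 0.76) with all libraries, 0.07 without the 3 near 0 in Fabp6 and 0.45 without P. gingivalis replicate 6.

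Gata5 (2:180325133-180334699, minus strand), a factor of the differentiated small intestinal epithelium, ordered the libraries differently from Gata4. Its normalized counts had a lowest, median and highest value of 335, 472 and 983 in the P. gingivalis libraries and 528, 613 and 810 in the PBS libraries. P. gingivalis replicates 6, 1 and 5 were the 3 lowest of all, at 335, 369 and 393, and P. gingivalis replicate 2 was the highest. The group difference was -0.29 (SE 0.23, interval -0.77 to 0.20), -0.06 without the 3 libraries near 0 in Fabp6, -0.17 without P. gingivalis replicate 6 and -0.48 without P. gingivalis replicate 2. An annotated antisense transcript, Gata5os, shares 258 exon bases with Gata5, and a transcript on the other strand shares 93 with Gata6; the strand setting of the counting is not given in the sources used here, so their reads cannot be told apart. Gata5os itself averaged 2.54 normalized counts in the P. gingivalis libraries and 3.91 in the PBS libraries. The transcript opposite Gata6 averaged more, 70.1 in the P. gingivalis libraries and 51.0 in the PBS libraries, where Gata6 averaged 519 and 417.

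GATA4 and GATA6 are also known in the mesothelium, the lining of the outer gut wall, and markers of that lining had lower summed counts after P. gingivalis. The summed normalized count of 8 mesothelial genes was 65.5 to 145 in the P. gingivalis libraries, against 165 to 369 in the PBS libraries, without overlap, with Wt1 and Muc16 at 0 in at least 1 library. All 6 tested members had lower means after P. gingivalis, with a median difference of -1.14, and none passed in limma (smallest adjusted p = 0.215) or edgeR, while DESeq2 called Upk3b (adjusted p = 0.000966) and Lrrn4 (adjusted p = 0.00906). Upk3b, a uroplakin of mesothelium, differed by -1.62 (SE 0.32), Lrrn4 by -1.43 (SE 0.30) and Msln, or mesothelin, by -1.27 (SE 0.33). The part of this lining in the levels of the GATA factors was not tested.

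The CDX pair varied less. Cdx2 (5:147300805-147307270, minus strand), the master regulator of intestinal identity, had a lowest, median and highest normalized count of 760, 954 and 1481 in the P. gingivalis libraries, against 1117, 1163 and 1262 in the PBS libraries. In 5 of the 6 P. gingivalis libraries Cdx2 lay below every PBS library, and P. gingivalis replicate 2 lay above them all. The difference was -0.25 (SE 0.13, interval -0.53 to 0.03), with a limma unadjusted p of 0.0744, the smallest of the 9 factors, and an adjusted p of 0.992. Without P. gingivalis replicate 2 it was -0.37 (limma adjusted p = 0.451). Relative to the mean log2 level of 9 general epithelial genes in the same library, Cdx2 averaged -2.57 ± 0.15 in the P. gingivalis libraries and -2.41 ± 0.10 in the PBS libraries (log2 units, SD, n = 6 each), and these ranges overlapped.

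Cdx1, on chromosome 18, the relative of Cdx2 that is strongest in crypts, was among the steadier factors. Its lowest, median and highest normalized counts were 394, 508 and 617 in the P. gingivalis libraries and 442, 523 and 609 in the PBS libraries. The difference was -0.06 (SE 0.12, interval -0.31 to 0.19). Unlike Gata4, it was lowest in P. gingivalis replicate 5 and not in replicate 6.

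Hnf4a (2:163506808-163572910, plus strand), the nuclear receptor shared by gut and liver epithelium, had the most normalized counts of the 9. Its lowest, median and highest normalized counts were 4335, 5910 and 8677 in the P. gingivalis libraries and 5607, 5956 and 7581 in the PBS libraries. The difference was -0.07 (SE 0.16, interval -0.41 to 0.27), and 0.01 without the 3 libraries near 0 in Fabp6. Hnf4a moved with the epithelial genes: relative to their mean in the same library it averaged 0.00 ± 0.12 in the P. gingivalis libraries and -0.02 ± 0.09 in the PBS libraries (log2 units, SD, n = 6 each). The antisense gene Hnf4aos shares no exon base with it.

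Hnf4g (3:3508030-3658052, plus strand), the gut-enriched partner of Hnf4a, ordered the libraries much as Gata6 did. Its lowest, median and highest normalized counts were 1491, 3076 and 4700 in the P. gingivalis libraries and 2278, 2779 and 3539 in the PBS libraries. The 3 highest libraries were P. gingivalis replicates 5 and 1 and PBS replicate 6, at 4700, 3876 and 3539, and the lowest was P. gingivalis replicate 6. The group difference was 0.06 (SE 0.23, interval -0.43 to 0.54), -0.15 without the 3 libraries near 0 in Fabp6 and 0.25 without P. gingivalis replicate 6.

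Onecut2, on chromosome 18, was near its floor in most libraries and abundant in a few. It had 697, 18.1, 5.48, 11.96, 339 and 3.48 normalized counts in P. gingivalis replicates 1 to 6, against 2.86, 8.30, 2.84, 14.4, 10.9 and 114 in PBS replicates 1 to 6. The 3 libraries with over 100 were again those near 0 in Fabp6, and the other 9 ran from 2.84 to 18.1, which is 3 to 20 reads. The SD of its log2 levels over the 12 libraries was 2.53, above that of 99.9% of the genes tested, and 0.89 without those 3 libraries. The group difference was 1.53 (SE 1.25, interval -1.14 to 4.21). It was 0.67 without P. gingivalis replicate 1, and 0.28 without the 3 libraries. On the recovered reads it was 2.85 in edgeR (adjusted p = 0.993) and 2.81 in DESeq2, and was called by neither.

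Isx (8:74873173-74893506, plus strand) was the steadiest of the 9. Its lowest, median and highest normalized counts were 608, 811 and 880 in the P. gingivalis libraries and 703, 784 and 947 in the PBS libraries. The difference was -0.04 (SE 0.10, interval -0.26 to 0.18), and the SD over the 12 libraries was 0.17 log2 units, above that of 20.7% of the genes tested.

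**Figure D2:**
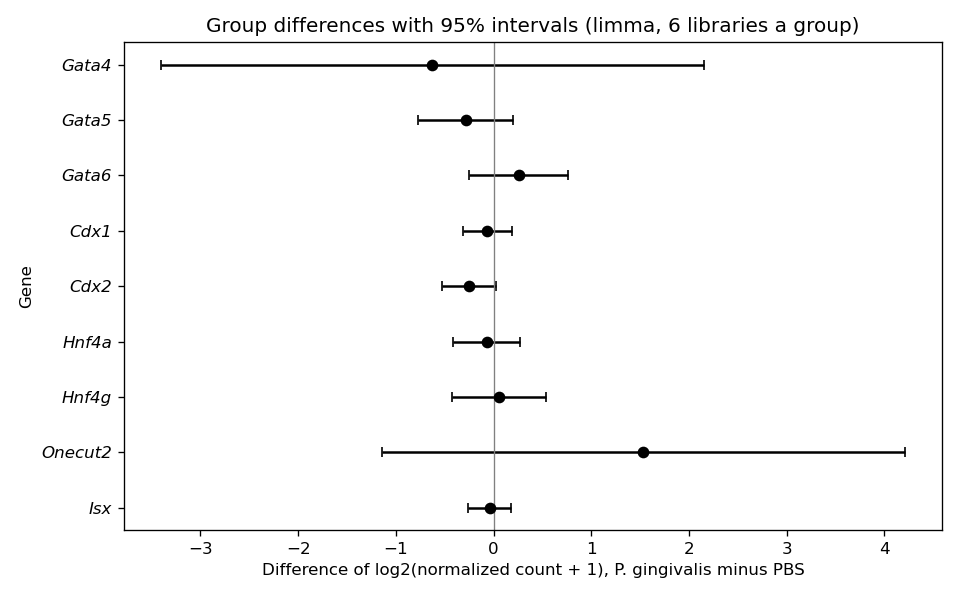
Difference of log2(normalized count + 1), P. gingivalis minus PBS, on the horizontal axis for each of the 9 factors (rows); points are limma estimates from 6 libraries a group and bars 95% intervals. Every interval includes 0, and those of Gata4 and Onecut2, with SEs of 1.29 and 1.25, are the widest.

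Seen by library, 7 of the 9 factors were lowest in P. gingivalis replicate 6, the exceptions being Cdx1 and Onecut2. The share of all genes lowest in that library was not counted. That library had the second lowest mean log2 level of the general epithelial genes, at 12.24, where the others ran from 12.09 to 13.03, and the highest summed smooth muscle genes, at 29221 normalized counts. Relative to the epithelial mean, Isx in P. gingivalis replicate 6 was at -2.99, within the range of the others, as were Gata6, Cdx1, Cdx2 and Onecut2. Gata4 was at -12.24, Gata5 at -3.84, Hnf4g at -1.69 and Hnf4a at -0.154, each the lowest of the 12. For Hnf4a the next value was close, -0.147 in PBS replicate 4. P. gingivalis replicate 2, with the highest epithelial mean of 13.03, was highest for 4 factors, Gata5, Cdx1, Cdx2 and Hnf4a. The part of epithelial content in these levels was not tested.

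Ratios within a library do not depend on its scaling, and they set the related factors side by side. Normalized Hnf4g counts were 79.8% and 84.0% of Hnf4a in P. gingivalis replicates 1 and 5 and 58.6% in PBS replicate 6, against 34.4% to 51.9% in the other 9 libraries. Gata5 was 50.6% and 53.8% of Gata6 in P. gingivalis replicates 1 and 5 and 113% in PBS replicate 6, against 123% to 187% in the other 9. Both ratios thus put those 3 libraries outside the range of the rest. Gata4 was 89.8% and 80.0% of Gata6 in P. gingivalis replicates 1 and 5 and 111% in PBS replicate 6, against 0% to 64.9% in the other 9. The Cdx1 share of Cdx2 did not separate them, at 62.3% and 42.8% in P. gingivalis replicates 1 and 5 and 46.0% in PBS replicate 6, against 36.8% to 62.0% in the other 9. These percentages are of counts that were not divided by transcript length, and the libraries are described one by one because no label sets them apart.

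**Figure D3:**
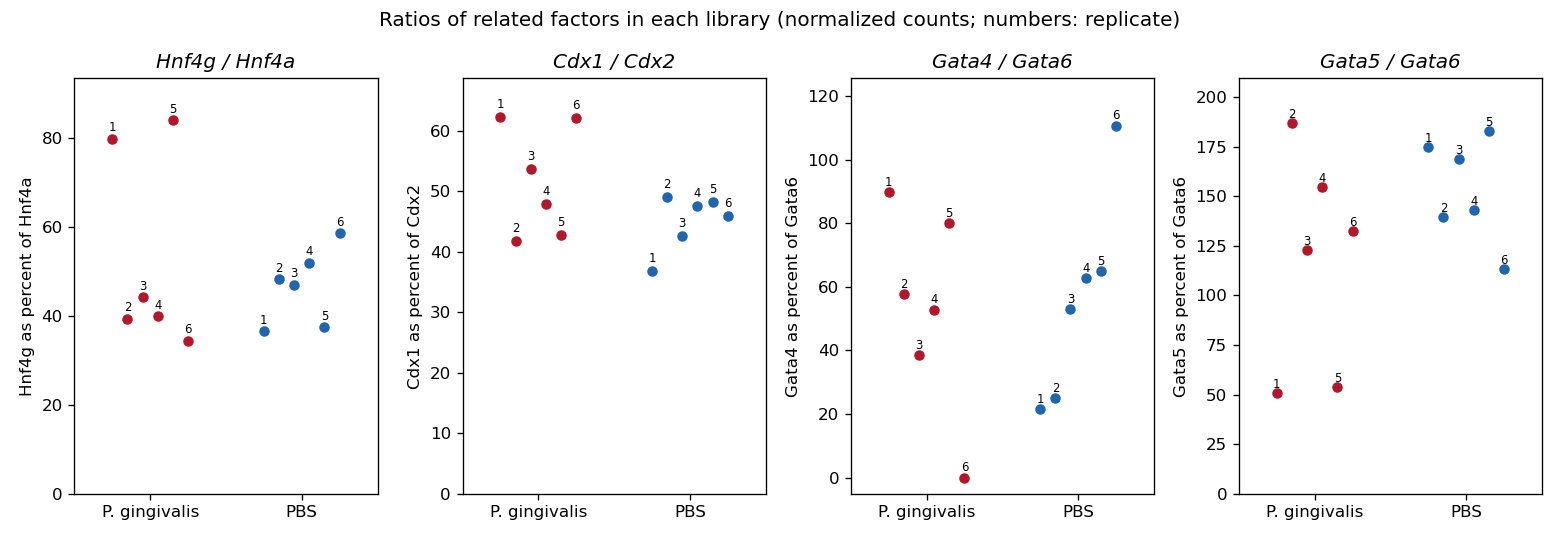
Ratios of related factors in each library, as percent of the second gene's normalized count on the vertical axis, in 6 P. gingivalis libraries (red, left) and 6 PBS libraries (blue, right), with replicate numbers. P. gingivalis replicates 1 and 5 and PBS replicate 6 are highest for Hnf4g over Hnf4a and for Gata4 over Gata6, and lowest for Gata5 over Gata6.

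Divided by length, the factors span a wide range. Per kilobase of annotated exon, Hnf4a averaged 1245 ± 315 normalized counts in the P. gingivalis libraries and 1282 ± 148 in the PBS libraries, and Hnf4g averaged 1189 ± 426 in the P. gingivalis libraries and 1085 ± 159 in the PBS libraries (SD, n = 6 each). Those neighbours did not separate, Hnf4a being above Hnf4g in 9 of 12 libraries. In the PBS libraries there followed Cdx2 at 521 ± 29.4, Isx at 441 ± 48.0, Cdx1 at 303 ± 39.2 and Gata5 at 191 ± 31.1 per kilobase. Cdx2 was above Isx in 8 of 12 libraries, all 6 of PBS and 2 of P. gingivalis, while Isx was above Cdx1 and Cdx1 above Gata5 in all 12. Gata4 averaged 66.2 ± 53.0 and Gata6 64.0 ± 14.4 per kilobase in the PBS libraries, an order that held in 5 of 12 libraries and turned when the longest coding transcript was used as the length, with Gata6 at 129 and Gata4 at 76.0. Onecut2 was last in both groups, at 11.04 ± 17.6 per kilobase in the P. gingivalis libraries and 1.58 ± 2.69 in the PBS libraries.

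**Figure D4:**
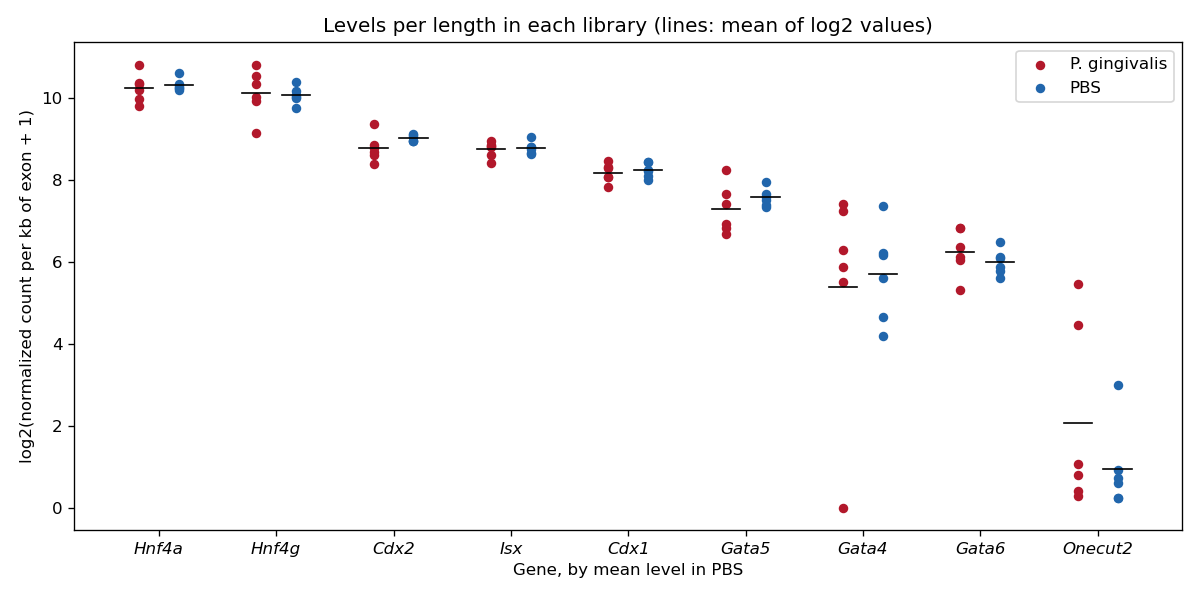
Level per length of each factor, as log2(normalized count per kilobase of exon + 1) on the vertical axis, ordered by its mean in PBS; each point is a library, P. gingivalis in red on the left and PBS in blue on the right of each pair, and lines are means of the log2 values. Both HNF4 genes sit at the top and Onecut2 at the bottom, and the spread is widest for Gata4 and Onecut2.

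Gata4 and Onecut2 were the factors whose SD of log2 levels reached 1, and for each the 5 most similar genes were found by the root mean square difference of log2 levels, each gene centred on its own mean over the 12 libraries. For Gata4 these were Slc2a2, the basolateral glucose transporter whose promoter is printed above, at 0.76, Dnase1, a secreted nuclease, at 0.76, Leap2, a peptide of liver and jejunum, at 0.79, Slc23a1, a vitamin C transporter, at 0.82, and Ugt2a3, a glucuronosyltransferase, at 0.83. Slc2a2 had 5505, 4775 and 3654 normalized counts in P. gingivalis replicates 1 and 5 and PBS replicate 6, 20.9 in P. gingivalis replicate 6 and at most 1215 in the others. For Onecut2 they were Adh6a, an alcohol dehydrogenase, at 0.61, the pseudogene Slc22a13b-ps at 0.77, Bbox1, an enzyme of carnitine synthesis, at 0.90, G6pc, a glucose-6-phosphatase, at 0.997, and Adh1, another alcohol dehydrogenase, at 1.01. Adh6a had 1021, 481 and 219 normalized counts in P. gingivalis replicates 1 and 5 and PBS replicate 6, against 2.61 to 26.9 in the other 9. None of these 10 genes passed limma's test between the groups. The ranking rests on the libraries that stand apart: without P. gingivalis replicates 1, 5 and 6 and PBS replicate 6, an alternative added after the data were seen, 0 of the 5 genes stayed among the 5 most similar for either factor. Among 15021 genes those of Gata4 then ranked 13 to 832, with Slc2a2 at 15, and those of Onecut2 ranked 80 to 3796. The most similar gene over the remaining 8 libraries was Plb1, an intestinal phospholipase, for Gata4, at 0.25, and the mitochondrially encoded mt-Nd4 for Onecut2, at 0.34, where Onecut2 had at most 20 reads a library.

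The position markers are set beside these 2 factors. By the same measure over 12 libraries Fabp1 lay 1.34 from Gata4 and 1.43 from Onecut2, while Lct lay 1.202 from Gata4 and 2.96 from Onecut2, more than the SD of Onecut2 itself. Lct had 18205, 9933, 4777, 5055, 27629 and 0.870 normalized counts in P. gingivalis replicates 1 to 6, against 748, 923, 4709, 8833, 4465 and 22535 in PBS replicates 1 to 6. Its lowest library was that without a Gata4 read, and its next lowest, PBS replicates 1 and 2, were also the next lowest for Gata4. Fabp1, whose protein binds fatty acids in proximal enterocytes, had 26745, 21996 and 16938 in P. gingivalis replicates 1 and 5 and PBS replicate 6, against 18.3 to 1821 in the other 9. Fabp6 was near 0 where Gata4 was highest. In P. gingivalis replicate 6, without Gata4, Fabp6 had 15621, within the range of the other libraries. Slc10a2 had 4007 in that library, its highest value of the 12, followed by 3438 in PBS replicate 1. Whether Lct, Fabp1, Fabp6 or Slc10a2 follows Gata4 was not tested. Zfpm1, which encodes the GATA cofactor FOG1, had 445 and 322 normalized counts in P. gingivalis replicates 1 and 5 and 356 in PBS replicate 6, against 62.6 to 196 in the rest. None of these 4 position markers passed limma's test between the groups: the difference was -2.23 (SE 2.75) for Fabp6, -1.09 (SE 1.27) for Slc10a2, 0.31 (SE 1.52) for Fabp1 and -0.61 (SE 1.92) for Lct. Without the 3 libraries the difference was -0.50 for Fabp6, 0.13 for Slc10a2, -0.92 for Fabp1 and -1.69 for Lct. These values keep P. gingivalis replicate 6, the lowest library for both Fabp1 and Lct, and without it alone Lct differed by 1.46.

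**Figure D5:**
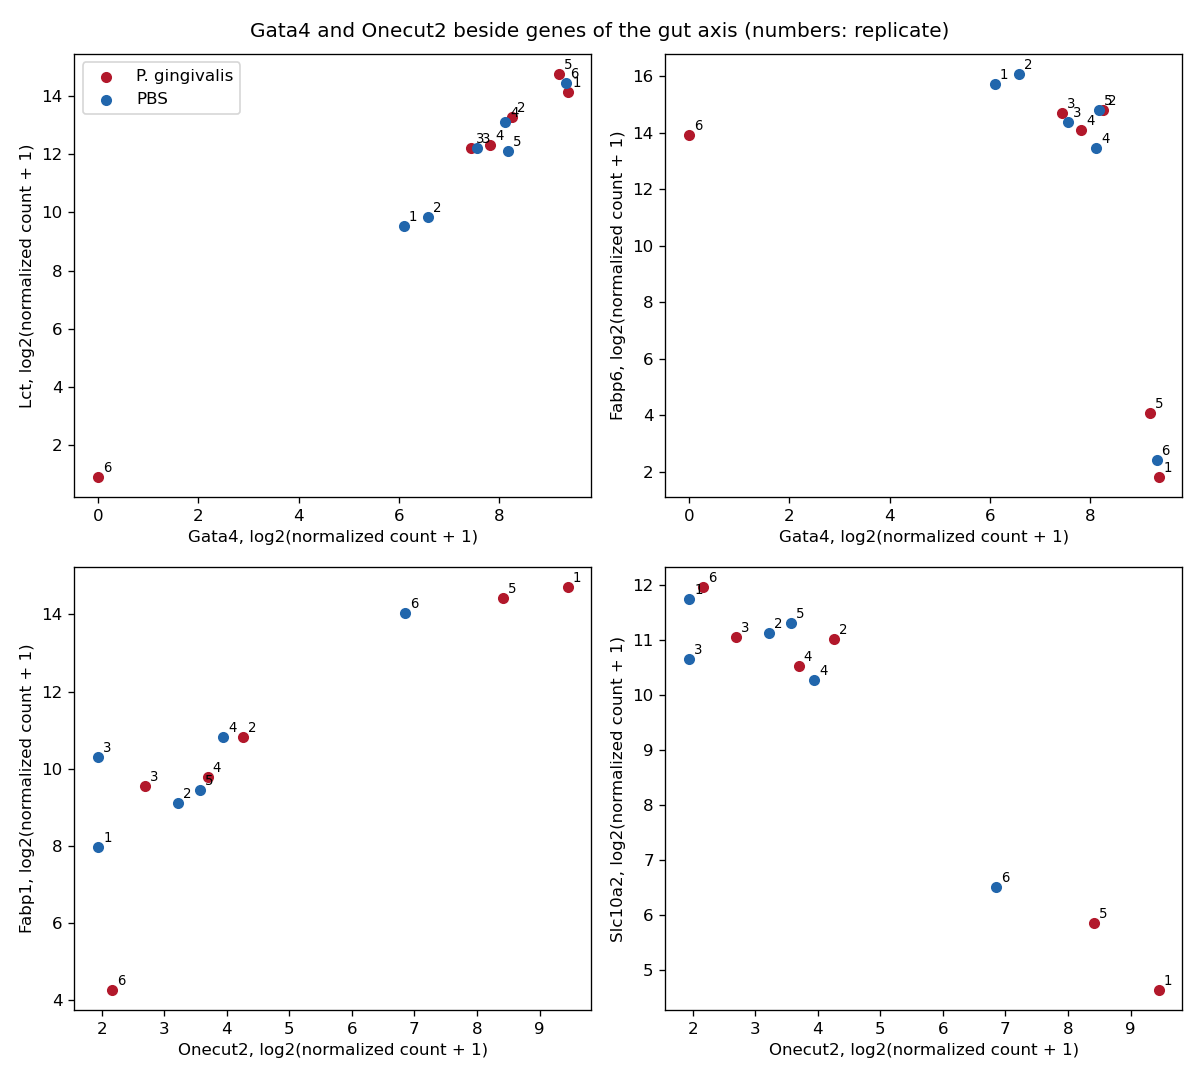
Gata4 (upper panels) and Onecut2 (lower panels) on the horizontal axes beside Lct, Fabp6, Fabp1 and Slc10a2 on the vertical axes, all as log2(normalized count + 1); each point is a library, P. gingivalis in red and PBS in blue, with replicate numbers. P. gingivalis replicates 1 and 5 and PBS replicate 6 lie together at high Gata4 and Onecut2 with little Fabp6 and Slc10a2, and P. gingivalis replicate 6 lies alone at 0 for Gata4.

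Genes that mark position along the gut and genes known as targets of the factors were taken as lists. limma called no member of them, and neither did edgeR, DESeq2 or the other alternatives; the means counted below are of log2 levels. Of 12 proximal genes tested, 7 had higher means after P. gingivalis, with a median difference of 0.09, and Apoa4, a chylomicron apolipoprotein, differed by 0.15 (SE 1.10). Of 8 ileal genes tested all 8 had lower means, with a median of -0.66, and Slc51a, a subunit of the basolateral bile acid exporter, differed by -0.68 (SE 0.52). The ileal median was -0.28 without the 3 libraries near 0 in Fabp6, and the proximal median then turned to -0.44; without P. gingivalis replicate 6 the proximal median was 0.93. Of 5 colon genes tested 2 had higher means, with a median of -0.02 that turned to 0.18 without the 3 libraries and to 0.15 without P. gingivalis replicate 6; Car1 differed by 1.86 (SE 1.25), with 498 normalized counts in P. gingivalis replicate 6 and at most 2.71 in any other library, and Aqp8 was below the filter.

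Of 14 HNF4 target genes 7 had higher means, with a median difference of 0.01, which was -0.17 without the 3 libraries near 0 in Fabp6 and 0.28 without P. gingivalis replicate 6. Apoa1, Apoa4 and Apob, apolipoproteins of lipid export, differed by -0.07 (SE 0.33), 0.15 (SE 1.10) and 0.16 (SE 0.39). The mean log2 level of the 14 genes was lowest in P. gingivalis replicate 6, at 11.4, and highest in P. gingivalis replicate 5, at 14.1. Hnf4g was lowest and highest in the same libraries, and so was the mean of the proximal list, at 6.12 and 11.5. The HNF4 and proximal lists share genes, Apoa4 among them, so the match is not particular to Hnf4g. Hnf4a was lowest in P. gingivalis replicate 6 too, and highest in P. gingivalis replicate 2. Of 11 CDX2 target genes 3 had higher means, with a median of -0.08 that turned to 0.08 without P. gingivalis replicate 6. Sis, the sucrase-isomaltase gene, differed by -0.03 (SE 0.37), Cdh17, an intestinal cadherin, by -0.08 (SE 0.19) and Muc2, the goblet cell mucin, by 0.26 (SE 0.28). The mean log2 level of the 11 genes ran from 12.5 to 13.7, and was lowest in P. gingivalis replicate 6 and highest in P. gingivalis replicate 2, as for Cdx2. The general epithelial genes, which share Vil1 and others with this list, were also highest in P. gingivalis replicate 2, at 13.03. Their mean was second lowest in P. gingivalis replicate 6, at 12.24, and the part of epithelial content was not tested.

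Of the 11 genes listed for ISX and carotenoid handling 10 were in the table and 9 were tested, 3 with higher means, with a median difference of -0.03, and -0.14 without the 3 libraries near 0 in Fabp6. Of the direct targets of ISX, Bco1, the carotene-cleaving oxygenase, averaged 29.5 ± 29.4 normalized counts in the P. gingivalis libraries and 28.6 ± 9.42 in the PBS libraries (SD, n = 6 each). Its difference was -0.48 (SE 0.55). Scarb1, the scavenger receptor for carotenoids, averaged 92.1 in the P. gingivalis libraries and 91.2 in the PBS libraries. It differed by -0.04 (SE 0.21) and Bco2, the other cleavage enzyme, by -0.01 (SE 0.39). Repression by ISX was not tested. Among 18 tested of 25 other gut transcription factors 9 had higher means, with a median of -0.01. Foxa1, a pioneer factor, differed by 0.17 (SE 0.21). Onecut1, the paralog of Onecut2, had no read in any of the 12 libraries.

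Markers of other cells that the tissue could hold differed in level between libraries, and limma and edgeR called none between the groups. Beside the 2 mesothelial genes above, DESeq2 called Cidec, a lipid droplet gene of the fat cell list, lower after P. gingivalis (adjusted p = 0.0430). Limma called 3 fat cell genes with sample weights, 6 fat cell genes and Upk3b without P. gingivalis replicate 6, and Alb without P. gingivalis replicate 2, all lower after P. gingivalis. Of the 15022 genes tested, these settings called 20, 53 and 1 in turn. The smooth muscle sum was 8335 to 29221 normalized counts in the P. gingivalis libraries and 13187 to 22606 in the PBS libraries. All 8 of its genes had lower means after P. gingivalis, with a median of -0.52, among them Actg2 (-0.67, SE 0.24), Des (-0.52, SE 0.22) and Myh11 (-0.40, SE 0.28). The B cell follicle sum was 75.9 to 832 in the P. gingivalis libraries and 59.6 to 717 in the PBS libraries, with all 8 genes at higher means and a median of 0.59, which was 1.58 without the 3 libraries near 0 in Fabp6 and 0.34 without P. gingivalis replicate 6, among them Ms4a1 (0.69, SE 0.91) and Cd79a (0.73, SE 0.56). The fat cell sum was 448 to 2299 in the P. gingivalis libraries and 1549 to 6833 in the PBS libraries, with a median of -4.38 over 7 genes, and Adipoq, Plin1, Cfd, Retn and Lep were at 0 in at least 1 library. Adipoq differed by -5.60 (SE 1.31), Plin1 by -4.89 (SE 1.11) and Cfd by -6.01 (SE 1.44), with a smallest limma adjusted p of 0.228 over the list. The 9 general epithelial genes had a median of -0.16, with Epcam at -0.21 (SE 0.20), Cdh1 at 0.04 (SE 0.21) and Vil1 at -0.15 (SE 0.24), the 6 tested M cell genes -0.04, with Gp2 at -0.83 (SE 0.77), Spib at 0.63 (SE 0.56) and Sox8 below the filter, and the 3 tested pancreas and liver genes -0.20, with Cela1 at -0.20 (SE 0.18), Alb, the albumin gene, at -2.45 (SE 0.50, limma adjusted p = 0.240) and Prss2 and Cpa1 below the filter. The part of these cell types in the factors' levels was not tested.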

How the data were processed

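Polyadenylated RNA of distal ileal tissue was kept in a stabilising solution, purified on columns and made into Illumina TruSeq libraries, per the labels' protocols. FastQC, HISAT2, Cufflinks, DESeq2 and GRCm38 (mm10) are listed, without roles, per the submitters' processing notes; how reads were counted, with which strand setting and on which annotation is not given in the sources used here. The deposited values are a normalized signal, that is, gene counts scaled by the authors with 1 factor for each library. In each library they were whole multiples of 1 step, which gave whole reads for 100% of values within 0.001 reads (largest deviation 0.000225); 18583 genes had no read and 4 rows with repeated symbols were left out of the tests.

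Groups came from the treatment label. The main test was limma (3.58.1, R 4.3.3), with its trend option, fitted across 15022 genes on log2(normalized count + 1), filtered at a mean of 10, two-sided, with Benjamini-Hochberg adjustment at 0.05; edgeR 4.0.16 (quasi-likelihood) and DESeq2 1.42.0 on the recovered reads, other pseudocounts, filters and scalings, sample weights, a replicate block, covariates and omitted libraries were alternatives. The limma steps were tested on simulated counts in which no library stood apart, so that test does not cover the libraries that did here. Same-numbered libraries did not deviate together (correlations -0.54 to 0.08, 0 of 6 over 0.1), so numbers were not taken as pairs. The members and the lists (general epithelial, proximal, ileal, colon, other transcription factors, HNF4, CDX2 and ISX genes, M cell, mesothelium, smooth muscle, B cell, fat, pancreas and liver) were chosen with earlier results of these data known. Named genes are the 9 members, the first 3 of each list (some of these are not reported here), the 4 position markers and, for members with an SD of at least 1, the 5 most similar genes; Zfpm1, Onecut1, Plb1, mt-Nd4, Alb, Cidec, Wt1, Muc16, Retn and Lep were named after their values were seen. Exon lengths come from GENCODE M21 and promoters from RefSeq, both on GRCm38. Depth limits precision to a floor of 3 reads, which covers counting error only.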

Additional observations from a re-analysis of the deposited data

Results flagged for a closer look

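A value far from the rest of its group was found in 6 of 62 groups of values looked at. The rule flags about 1 in 20 groups by chance only if values are normally distributed and groups independent. These groups share libraries and genes, and single genes were taken as unlogged counts, so the number of flags cannot be compared with chance. In the P. gingivalis libraries the log2 ratio of Gata4 over Gata6, each taken as normalized count + 1, was -7.98 in replicate 6, against -1.37 to -0.15 in the other libraries. In the PBS libraries 4 of the flags fell on replicate 6: Onecut2 had 114 normalized counts there against 2.84 to 14.4 in the others, Fabp1 had 16938 against 252 to 1814, Lct had 22535 against 748 to 8833, and the mean log2 level of the ileal genes was 8.28 against 10.9 to 12.2. The remaining one was Hnf4a in PBS replicate 5, at 7581 normalized counts against 5607 to 6247 in the other PBS libraries.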

How the results depend on the processing

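Across 25 alternatives for each of the 9 factors, 209 of 225 group differences kept their direction, 16 changed it, and 0 were called; the smallest limma adjusted p was 0.451, for Cdx2 without P. gingivalis replicate 2. The cause of the changes was not tested. The log2 difference of Gata4 became 0.048 with sample weights, 0.32 in edgeR and 0.33 in DESeq2, and that of Lct 0.32, 0.63 and 0.64. Without the 3 libraries near 0 in Fabp6 it became 0.0083 for Hnf4a, -0.15 for Hnf4g, 0.13 for Slc10a2 and -0.92 for Fabp1, and the spread of Onecut2 was 0.89; with gut position as a covariate it became -0.078 for Hnf4g and -0.75 for Fabp1, and with the epithelial level as a covariate 0.016 for Hnf4a and 0.0088 for Isx. Leaving out 1 library at a time gave ranges of -1.10 to 0.78 for Gata4 (positive without P. gingivalis replicate 6), -0.12 to 0.0072 for Cdx1, -0.18 to 0.016 for Hnf4a, -0.079 to 0.25 for Hnf4g, -0.077 to 0.029 for Isx, -0.51 to 1.58 for Fabp1 and -1.31 to 1.46 for Lct. The count of all genes called was 1 at a pseudocount of 5, 20 with sample weights, 31 in DESeq2, 1 without the 3 libraries, 3 with the epithelial covariate, and 0 to 53 leaving out 1 library, with 53 without P. gingivalis replicate 6, 7 without PBS replicate 5, and 1 each without P. gingivalis replicate 2 and PBS replicate 6; that of list genes was 3 with weights, 3 in DESeq2 and 0 to 7 leaving out 1. The spread of Gata4 was 1.06 to 2.64 on the log2 scale leaving out 1 library, the lowest without P. gingivalis replicate 6. Per kilobase, Gata6 in PBS was 129 with the longest coding transcript as length, an alternative added after the data were seen. With a replicate block 0 genes and 0 of the 9 factors were called. Onecut2 outside the 3 libraries rests on 3 to 20 reads a library.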
